A study of Mus musculus with 2 samples.

Results

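Among the cells of obese mouse fat, 65 of 15374 single cells (0.423%, 95% exact binomial interval 0.326 to 0.539%) met a rule for dendritic cells and had no count of Clec9a or Xcr1, the genes that mark the cross-presenting cDC1 lineage. Members were chosen by their counts, and cells that the authors named doublets were left out. A cell needed a count of at least 2 of the 5 dendritic markers Flt3, Cd209a, Zbtb46, Ccr7 and Fscn1, a count of the MHC class II gene H2-Ab1, and C1qa plus C1qb below 10 counts per 10000 counts of the cell (CP10k), a limit meant to leave out macrophages. It also needed Dcn plus Lum below 10 CP10k, fewer than 2 of the endothelial genes Cdh5, Kdr and Cldn5, and fewer than 2 of the T cell genes Cd3e, Cd3g, Trac and Trbc2. The values of these genes are therefore a description of the choice and support nothing.

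The cells came from the stromal vascular fraction, the non-adipocyte cells released when fat is digested, of the epididymal depot of male mice on a C57BL/6J background. The mice were Mincle-deficient or wild-type, Mincle being the lectin receptor encoded by Clec4e, and both genotypes were fed a high-fat diet over 15 weeks. Suspensions carried hashtag antibodies and were pooled, so 1 transcript library and 1 hashtag library hold both genotypes. The labels do not say which of the hashtags A0309, A0310, A0311 and A0312 came from which genotype, nor the number of mice per hashtag. Mincle-deficient and wild-type cells were therefore not compared, and since neither cells nor hashtags are known to be replicates, no difference below was tested.

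Dendritic cells take up antigen in tissues and present it to T cells. The cDC2 lineage is known by Sirpa, Itgam and lectins such as Clec10a, Mgl2 and Cd209a, and primes helper T cells. On activation, dendritic cells of either lineage switch on Ccr7, the receptor that leads them along lymph vessels to draining nodes, and Fscn1, an actin-bundling protein of their protrusions, together with Relb and other genes of the NF-kB pathway. On GRCm38, in the GENCODE vM21 annotation, the marker genes are Ccr7 at chr11:99144196-99155077, Fscn1 at chr5:142960343-142973185, Cd209a at chr8:3743397-3748984, Flt3 at chr5:147330741-147400489 and Zbtb46 at chr2:181387762-181459426.

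The members fell into 3 kinds. There were 14 cells with counts of both Ccr7 and Fscn1 (21.5% of members, interval 12.3 to 33.5%), called Ccr7-Fscn1 cells here. Another 40 cells (61.5%, interval 48.6 to 73.3%) had Cd209a and not that pair, and are called Cd209a cells. The remaining 11 cells (16.9%, interval 8.76 to 28.3%) had neither. Among the 14 Ccr7-Fscn1 cells 1 also had Cd209a, and among the 40 Cd209a cells 3 had Ccr7 and another 3 had Fscn1. Flt3, the receptor for the growth factor of dendritic cells, was counted in 9 of 14 Ccr7-Fscn1 cells, 30 of 40 Cd209a cells and 7 of 11 remaining cells. Zbtb46, a transcription factor of conventional dendritic cells, was counted in 5, 14 and 7 of them.

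**Figure D1:**
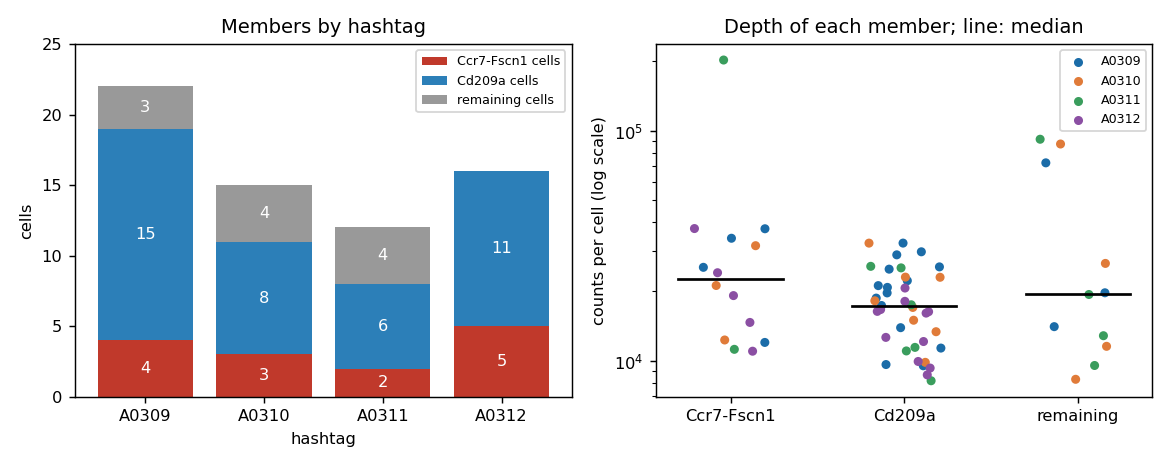
Number of members by hashtag, split by kind (left, bars from 0), and counts per cell of each member on a log axis, coloured by hashtag with the median as a line (right). Every hashtag holds Ccr7-Fscn1 and Cd209a cells, A0312 holds no remaining cell, and 4 cells at 72402 counts or more stand apart from the other 61.

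By hashtag, members numbered 22 in A0309 (0.669% of its cells, interval 0.420 to 1.01%), 15 in A0310 (0.424%, 0.238 to 0.699%), 12 in A0311 (0.308%, 0.159 to 0.538%) and 16 in A0312 (0.344%, 0.197 to 0.557%). The share in A0309 was the highest, but its interval overlapped each of the other intervals. The 14 Ccr7-Fscn1 cells were 4, 3, 2 and 5 in the same order of hashtags, and the 40 Cd209a cells were 15, 8, 6 and 11. Intervals here cover counting error only. In all 65 members the hashtag in the cell name was also the hashtag with most tag counts, and 64 had at least 75% of at least 10 tag counts from it. The exception, a remaining cell of A0310, had 55.6%.

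The label of the members was checked against depth and against markers of other cells. The median member had 18111 counts and 3142 genes, over a range of 8182 to 202548 counts. A cell passed with 2 of the markers in 45 cases, with 3 in 15 and with 4 in 5, and 148 cells that met the other conditions had only 1. For C1qa plus C1qb the members nearest the limit had 9.72 and 8.05 CP10k, the nearest cells outside had 10.5 and 12.3, and 22 members were at 0. H2-Ab1, C1qa, Dcn and Lum are among 68 genes whose values from 1 to 4 are absent from the table. This means that small counts of these genes had been replaced by 0 in the deposited table. The lowest value left ran from 5 to 68 counts by gene, with 8 for H2-Ab1, 6 for C1qa, 68 for Dcn and 8 for Lum. A 0 of these genes can therefore hide counts, more so in shallow cells. With every cell thinned to 10000 counts, 56 members were deep enough and 46 of them kept 2 markers.

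The 4 deepest members went against the label. They held 72402 to 202548 counts, 28.7% of all counts of the members, while the other 61 reached at most 37516. None had a count of Flt3 or Cd209a. The deepest, a Ccr7-Fscn1 cell of hashtag A0311, entered on 1 count of Ccr7 and 1 of Fscn1, and the other 3, remaining cells of A0309, A0310 and A0311, entered on 1 count of Fscn1 and 1 or 2 of Zbtb46. Their 12 macrophage markers summed to 63.3 to 167 CP10k, against a median of 10.5 CP10k over all members, 147 CP10k in monocytes and 249 CP10k in macrophages. Fscn1 was also counted in 65.5% of endothelial cells and Zbtb46 in 30.4%, while Ccr7, Cd209a and Flt3 were counted in 0.452%, 0.377% and 0.905% of them. The median endothelial cell had 15214 counts, so Fscn1 and Zbtb46 alone do not set a dendritic cell apart in this library. The lists on which the deepest cell bears most are given without it as well. Monocyte markers had a median of 14.1 CP10k per member (0 to 187), against 14.6 CP10k in Clec9a-Xcr1 cells, 52.7 CP10k in monocytes and 1.74 CP10k in C1q macrophages. That list includes Ccr2 and Nr4a1, the latter also listed as an immediate early gene. Of the other marker lists, T and NK cell genes had a median of 0.415 CP10k per member, granulocyte and mast cell genes 0, stromal and endothelial genes 0, B cell genes 0.925 and plasmacytoid dendritic cell genes 1.57, although 1 member reached 148 CP10k for B cell genes and 1 reached 60.1 CP10k for plasmacytoid genes. The 12 cDC1 markers other than Clec9a and Xcr1 had a median of 6.25 CP10k per member (0 to 80.4), against 86.0 CP10k in Clec9a-Xcr1 cells. The value of 80.4 CP10k was that of a remaining cell. Irf8, a cDC1 gene, was at 27.6 CP10k in a remaining cell of A0310 and 24.2 CP10k in a remaining cell of A0311. The part of other cell types in the results was not tested.

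In the Ccr7-Fscn1 cells, Ccr7 ran from 0.049 CP10k in that deepest cell, with the next at 4.00 and 8.92, through a median of 34 CP10k to 95.2 CP10k. The second lowest cell, of hashtag A0312 with 37516 counts, had only 1 count of Fscn1 and carried Cd209a at 18.9 CP10k and the lectin Mgl2 at 26.7 CP10k. The other 12 cells had Ccr7 and Fscn1 at 8.86 CP10k or more and no Cd209a. These values chose the cells. Other genes named below were not in the rule. Those switched on together with Ccr7 and Fscn1, or that go with Cd209a, still cannot be told apart from the choice.

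**Figure D2:**
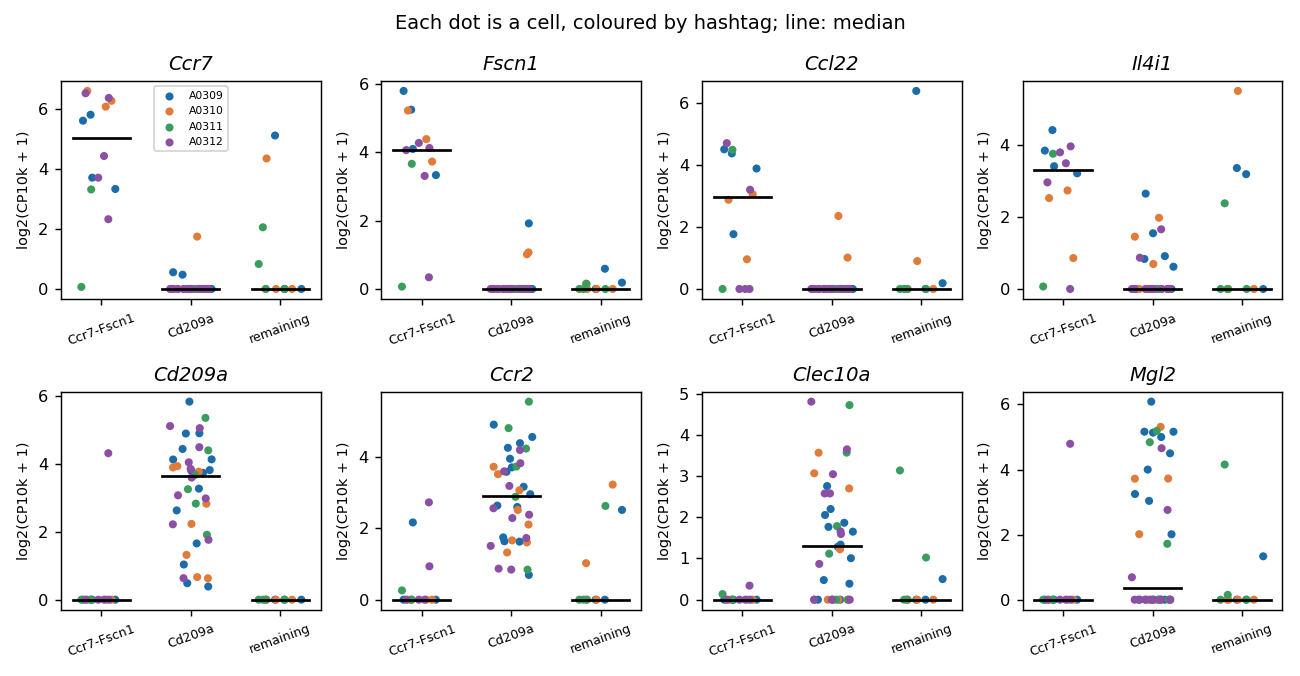
Level of 8 genes in each member as log2(CP10k + 1), by kind of member and coloured by hashtag, with the median of each kind as a line. The genes shown were picked after their values were seen, and Ccr7, Fscn1 and Cd209a among them chose the cells. Ccl22 and Il4i1 sit high in most Ccr7-Fscn1 cells, while Ccr2 is above 0 in all 40 Cd209a cells and Clec10a and Mgl2 in 27 and 20 of them.

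Ccr7-Fscn1 cells had higher levels of most maturation genes, and Cd209a cells had higher levels of cDC2 lectins, Ccr2 and several class II loading genes. The immunoregulatory enzyme Il4i1 was counted in 13 of 14 Ccr7-Fscn1 cells and 10 of 40 Cd209a cells, at 526 CPM (counts summed over cells and scaled to 1000000, exact 95% Poisson interval 464 to 594) and 37.8 CPM (24.9 to 55.0). By hashtag it had 1303, 430, 70.2 and 704 CPM in Ccr7-Fscn1 cells of A0309, A0310, A0311 and A0312, against 42.5, 72.4, 0 and 19.1 CPM in Cd209a cells. Ccr7-Fscn1 cells of A0309, A0310 and A0312 lay above every hashtag of Cd209a cells, and those of A0311, which include the deepest cell, lay within the Cd209a range. Ccl22, a chemokine that draws Ccr4-bearing T cells, was counted in 10 of 14 and 2 of 40, at 504 CPM (443 to 570) in Ccr7-Fscn1 cells and 11.2 CPM (4.84 to 22.1) in Cd209a cells. By hashtag Ccl22 had 1258, 476, 112 and 535 CPM in Ccr7-Fscn1 cells and 0, 52.6, 0 and 0 CPM in Cd209a cells, with no overlap. Ccr2, the receptor for monocyte chemokines, was counted in 4 of 14 Ccr7-Fscn1 cells at 78.9 CPM and in all 40 Cd209a cells at 940 CPM. Its levels were 119, 0, 18.7 and 207 CPM in Ccr7-Fscn1 cells of the 4 hashtags and 1046, 579, 1725 and 586 CPM in Cd209a cells, again without overlap.

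The promoters of Ccl22 and Il4i1 are shown because both genes set the Ccr7-Fscn1 cells apart, and that of Cd209a because it marks the larger kind. They are RefSeq windows from 250 bases before to 50 after the annotated start in GRCm38.p6, 5′ to 3′ on the gene's strand, and capitals mark GGGANNNNCC on either strand, a form of the kB motif chosen after the values were seen. Ccl22 is on chr8:94745434-94745733 (plus strand), Il4i1 on chr7:44836038-44836337 (plus strand) and Cd209a on chr8:3748935-3749234 (minus strand).
Ccl22: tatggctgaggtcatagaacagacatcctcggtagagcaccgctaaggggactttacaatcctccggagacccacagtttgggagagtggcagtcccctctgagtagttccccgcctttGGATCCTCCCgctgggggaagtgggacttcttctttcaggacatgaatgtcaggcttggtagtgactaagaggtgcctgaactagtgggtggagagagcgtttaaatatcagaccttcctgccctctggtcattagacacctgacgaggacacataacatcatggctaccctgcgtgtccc
Il4i1: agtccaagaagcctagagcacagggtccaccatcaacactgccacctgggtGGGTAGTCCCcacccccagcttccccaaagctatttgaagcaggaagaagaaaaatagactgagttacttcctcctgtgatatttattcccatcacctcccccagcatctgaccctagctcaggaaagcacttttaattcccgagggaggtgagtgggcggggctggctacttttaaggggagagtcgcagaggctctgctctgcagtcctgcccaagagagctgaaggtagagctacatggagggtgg
Cd209a: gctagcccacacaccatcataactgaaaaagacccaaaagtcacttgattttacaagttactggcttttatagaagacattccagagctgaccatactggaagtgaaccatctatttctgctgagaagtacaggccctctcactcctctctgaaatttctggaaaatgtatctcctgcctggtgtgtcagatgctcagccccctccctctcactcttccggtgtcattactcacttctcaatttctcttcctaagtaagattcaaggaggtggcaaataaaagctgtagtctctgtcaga
Ccl22 and Il4i1 each held 1 match, on the strand opposite to the gene, and the Cd209a window held none. Over the 15 promoters found for 11 of the 15 maturation genes called higher below, 4 held the motif (26.7%), against 20.7% of all 32851 promoters in the table. A match is a description of letters, not of binding.

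Across all genes, a gene was called when the log2 ratio of CPM plus 1 was at least 1 in size in the pool and, with the same sign, within each hashtag that held 10 or more cells of both groups. No hashtag held 10 of both kinds of member, so calls between them rest on the pool alone and are wide: of 12114 genes at 5 CPM or more in either kind, 3077 (25.4%) were higher in Ccr7-Fscn1 cells and 2862 (23.6%) lower. A gene was therefore also required to be called by the mean over cells, without its top cell and without the deepest cell, a requirement added after the data were seen. Under all 4 summaries 1106 genes (9.13%) were higher and 1631 (13.5%) lower, and the calls named in the next paragraphs meet it unless stated. These shares are the background for the list counts between the kinds of member. The deepest cell alone gave 41.0% of the counts of the Ccr7-Fscn1 cells. Without it, calls on summed counts put 20.9% of 11771 tested genes higher and 33.4% lower, with a median log2 ratio of -0.27 over all tested genes.

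Of 25 genes in the maturation and NF-kB list, all tested, 15 were higher in Ccr7-Fscn1 cells and 0 lower, with a median log2 ratio of 1.97, against 0.03 over all tested genes. The list was chosen with earlier results of these data known. Ccr7 and Fscn1 chose the Ccr7-Fscn1 cells and are switched on together with Relb and other NF-kB genes. The direction of this list therefore cannot be told apart from the choice. Cacnb3, a calcium channel subunit that marks migratory dendritic cells in mice, had 692 CPM in Ccr7-Fscn1 cells (11 of 14 cells) and 1.40 CPM in Cd209a cells (1 of 40), a log2 ratio of 8.17. Socs2, a brake on cytokine signalling, had 295 CPM (11 of 14) and 7.0 CPM (3 of 40), a log2 ratio of 5.21. Anxa3 had 566 CPM (13 of 14) and 23.8 CPM (6 of 40), and Tmem123 had 2454 CPM (14 of 14) and 206 CPM (31 of 40). Bcl2l14, Lad1 and Laptm4b had no count in Cd209a cells. Bcl2l14 was at 60.7 CPM in 7 Ccr7-Fscn1 cells, at least 14.4-fold higher when Cd209a cells are set to a floor of 3 counts over the group. Without the deepest cell 20 of the 25 were higher by summed counts and 0 lower, with a median of 2.58.

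Within the NF-kB pathway itself the calls differed between genes. Relb, the subunit of the non-canonical arm, had 364 CPM in Ccr7-Fscn1 cells (14 of 14) and 86.8 CPM in Cd209a cells (18 of 40), a log2 ratio of 2.06, and the signalling adaptors Traf1 and Birc2 were called higher at 1.5 and 2.80. Rel, Nfkb2, Nfkbia, Birc3, Nfkbie, Tnfaip3 and Nfkb1 were not called, with log2 ratios between -0.93 for Nfkb1 and 1.00 for Rel. These values depend on the deepest cell: without it Rel was at 1.59 and Nfkb2 at 1.14, both past the threshold, Nfkbie turned to 0.32 and Nfkb1 was at -0.40. Nfkbia, the inhibitor that NF-kB itself induces, had 1167 CPM and was counted in 14 of 14 Ccr7-Fscn1 cells, and 1129 CPM in 35 of 40 Cd209a cells.

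Cell by cell the list was nearly separate between these kinds of member, which Ccr7 and Fscn1 or Cd209a had chosen. A Ccr7-Fscn1 cell had counts of a median of 20 of the 25 genes (14 to 24), and a Cd209a cell of 10 (4 to 18). Their sum was 31.0 CP10k in the deepest Ccr7-Fscn1 cell and 65.6 CP10k in the cell with Cd209a and Mgl2, and 118 to 277 CP10k in the other 12, with a median of 201 over all 14. Cd209a cells ran from 6.60 to 97.1 CP10k with a median of 32.1, so those 12 lay above every Cd209a cell and the deepest cell and the one with Cd209a did not. Among the 11 remaining cells the sum reached 184 CP10k, in a cell without counts of Fscn1.

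**Figure D3:**
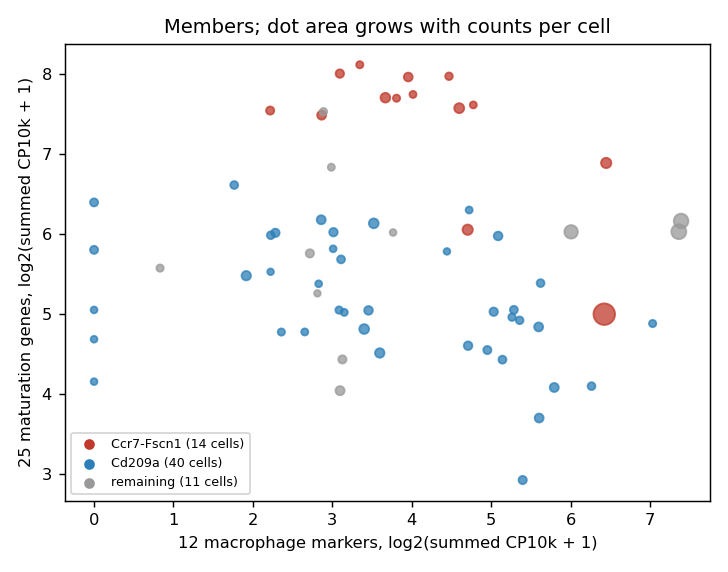
Sum of the 25 maturation genes against the sum of 12 macrophage markers in each member, both as log2(CP10k + 1), with dot area growing with counts per cell. Cd63 is in both sums. Of the Ccr7-Fscn1 cells 12 form a band above all Cd209a cells, and the 4 deepest members lie at the right, among the highest in macrophage markers.

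**Figure D4:**
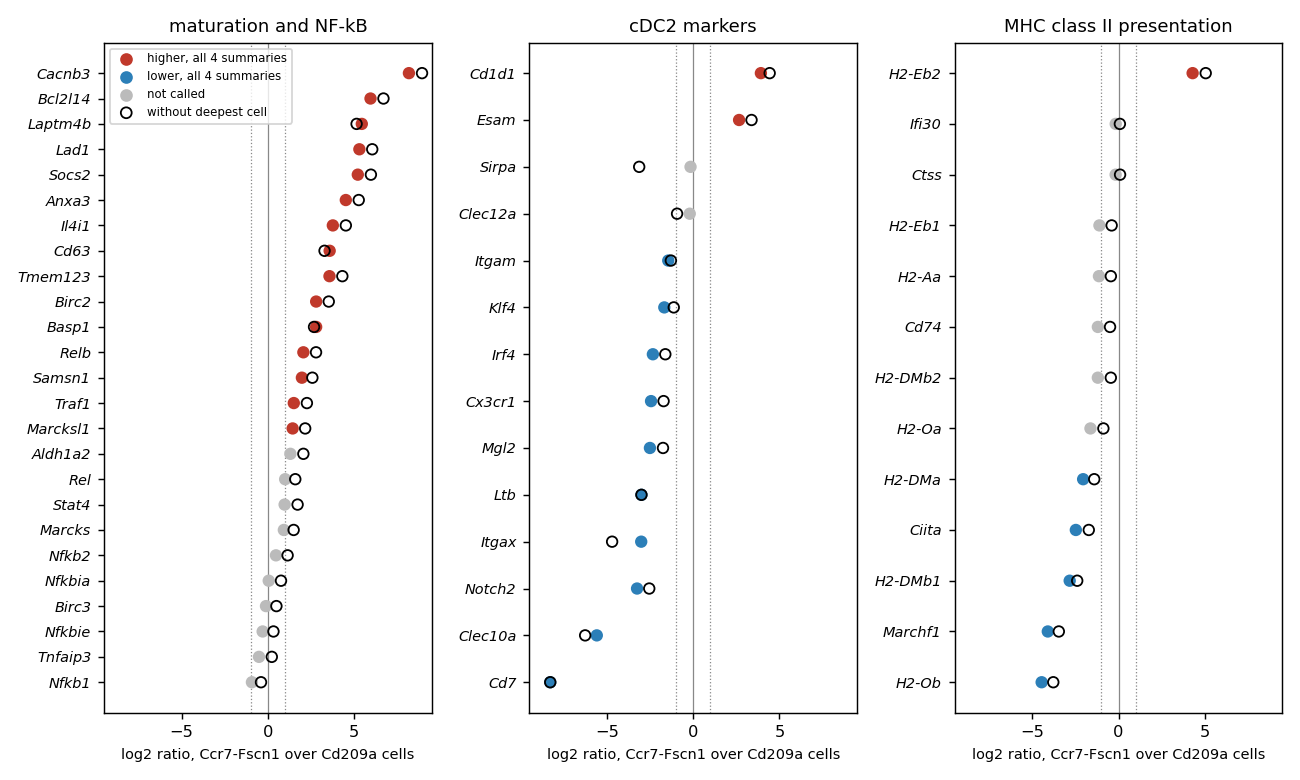
Log2 ratio of CPM plus 1, Ccr7-Fscn1 over Cd209a cells, for each tested gene of 3 lists, coloured by the call under all 4 summaries, with open circles for the value without the deepest cell. Maturation genes lie mainly to the right, cDC2 markers mainly to the left, and the class II chains H2-Aa, H2-Eb1 and Cd74 come within 1 of no difference without the deepest cell.

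Secreted signals differed in kind more than in number. Of 13 tested chemokine ligands 3 were higher in Ccr7-Fscn1 cells and 4 lower, with a list median of -1.52. The shares over all tested genes were 9.13% higher and 13.5% lower under all 4 summaries. Ccl5, a chemokine that draws T cells, had 1764 CPM in Ccr7-Fscn1 cells (12 of 14) and 7.0 CPM in Cd209a cells (2 of 40), a log2 ratio of 7.79. It was at 4424, 2150, 126 and 2094 CPM in Ccr7-Fscn1 cells of the 4 hashtags and 13.1, 0, 0 and 6.37 CPM in Cd209a cells, without overlap. Ccl22, already described, and Cxcl16, the ligand for Cxcr6, were also higher, and Cxcl16 had 504 CPM (13 of 14) and 77.0 CPM (17 of 40). The inflammatory chemokine Ccl4 went the other way, at 4.05 CPM (2 of 14) in Ccr7-Fscn1 cells and 347 CPM (15 of 40) in Cd209a cells, as did Ccl3, Ccl2 and Cxcl1. Ccl17, which shares its receptor with Ccl22, was not counted in the Ccr7-Fscn1 cells.

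Of 17 tested cytokines and growth factors 3 were higher in Ccr7-Fscn1 cells (Il12b, Il15 and Pdgfb) and 3 lower (Il1b, Csf1 and Ltb). Over all tested genes 9.13% were higher and 13.5% lower under all 4 summaries, so by number this list stands little apart. Ltb had no count in Ccr7-Fscn1 cells and was counted in 2 of 40 Cd209a cells, at least 1.15-fold lower at the floor of 3 counts, which is short of the fold a call needs. Il12b, the p40 chain of IL-12 and IL-23, was counted in 5 of 14 Ccr7-Fscn1 cells at 273 CPM and in no Cd209a cell, at least 65-fold higher at the floor. Il15, a survival factor of memory T and NK cells, was counted in 4 Ccr7-Fscn1 cells and no Cd209a cell, and its presenting receptor Il15ra in 8 of 14 at 72.8 CPM and 1 of 40 at 1.40 CPM. Il1b, the inflammasome cytokine, had 72.8 CPM (2 of 14) in Ccr7-Fscn1 cells and 1007 CPM (22 of 40) in Cd209a cells, a log2 ratio of -3.77. Csf2rb, the beta chain of the GM-CSF receptor, and its close relative Csf2rb2, an IL-3 receptor chain of mice, were higher in Ccr7-Fscn1 cells, at log2 ratios of 2.28 and 2.78, and the ligand-binding chain Csf2ra was lower at -1.25.

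Of 14 tested cDC2 markers 10 were lower in Ccr7-Fscn1 cells and 2 higher, with a list median of -2.39, or -2.01 with groups at 0 set to the floor. Cd209a, itself a cDC2 lectin, chose the Cd209a cells, so these lower calls cannot be told apart from that choice. Monocyte markers moved the same way, with 6 of 9 tested lower and 1 higher, a list median of -2.78, and a median per cell of 2.33 CP10k in Ccr7-Fscn1 cells against 18.6 CP10k in Cd209a cells. Their list holds Ccr2 and Nr4a1, the latter also an immediate early gene. In Cd209a cells of A0309, A0310, A0311 and A0312 Ccr2 had 1046, 579, 1725 and 586 CPM. Nr4a1 had 712, 1178, 333 and 899 CPM there, and the whole list summed to 2256 CPM in the pool. Plac8 had 173, 243, 363 and 408 CPM, while Chil3 and Hp had no count. The part of monocyte markers in the cDC2 difference was not tested. Cd7 had no count in Ccr7-Fscn1 cells and 310.9 CPM in 19 of 40 Cd209a cells, at least 51.2-fold lower. Clec10a had 6.07 CPM (2 of 14) in Ccr7-Fscn1 cells and 339 CPM (27 of 40) in Cd209a cells, a log2 ratio of -5.59. The integrin Itgax, known as CD11c, had 24.3 CPM (3 of 14) and 203 CPM (22 of 40). Mgl2 had 202 CPM in Ccr7-Fscn1 cells, all of it from the cell with Cd209a, and 1155 CPM in 20 of 40 Cd209a cells. Sirpa was not called, at 223 CPM in Ccr7-Fscn1 cells and 248 CPM in Cd209a cells, but its log2 ratio was -3.13 without the deepest cell. Cd1d1 and Esam were the 2 higher, both at 14.2 CPM in at most 4 Ccr7-Fscn1 cells.

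Antigen presentation by class II was lower in part. Summed counts put 10 of 13 tested class II genes lower in Ccr7-Fscn1 cells, but 5 of these 10 calls were lost without the deepest cell, those of H2-DMb2, H2-Oa and of Cd74, H2-Aa and H2-Eb1, whose small counts are absent from the table. Cd74, the invariant chain, had 10987 CPM in Ccr7-Fscn1 cells and 25205 CPM in Cd209a cells, a log2 ratio of -1.20 that was -0.49 without that cell. Per cell its median was 192 CP10k in Ccr7-Fscn1 cells and 227 CP10k in Cd209a cells. The 5 calls kept were the class II transactivator Ciita at -2.47, the peptide-loading chains H2-DMa and H2-DMb1 at -2.05 and -2.83, their inhibitor H2-Ob at -4.46 and the ubiquitin ligase Marchf1, which removes class II from the surface, at -4.10. H2-Eb2 was the exception, with 293 CPM (9 of 14) in Ccr7-Fscn1 cells and 14 CPM (2 of 40) in Cd209a cells. Of 14 tested class I genes 3 were higher and 0 lower, led by the proteasome activator Psme2 at 753 CPM in Ccr7-Fscn1 cells and 207 CPM in Cd209a cells. All tested genes had 9.13% higher and 13.5% lower under the same 4 summaries. Without the deepest cell 9 of the 14 were higher by summed counts and 0 lower, among them the light chain B2m, at 6961 CPM in Ccr7-Fscn1 cells and 2487 CPM in Cd209a cells, and the heavy chain H2-K1, at 3328 and 1179 CPM in the same groups. Per cell the class I list had a median of 187 CP10k in Ccr7-Fscn1 cells and 76.4 CP10k in Cd209a cells.

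Under all 4 summaries most co-stimulatory genes were not called. Of 15 tested, 2 were higher in Ccr7-Fscn1 cells, the inhibitory ligand Cd200 (60.7 CPM in 9 of 14 cells, none in Cd209a cells) and Tnfrsf4, and 1 was lower, Cd86, with 12.1 CPM (3 of 14) in Ccr7-Fscn1 cells and 79.8 CPM (12 of 40) in Cd209a cells. Cd83, a maturation marker of human and mouse dendritic cells, had 927 CPM (14 of 14) and 798 CPM (33 of 40), and Cd40 had 105 CPM (12 of 14) and 72.8 CPM (15 of 40). Without the deepest cell Cd40 had 171 CPM in Ccr7-Fscn1 cells, a log2 ratio of 1.22, and 8 of 16 tested genes of the list were higher by summed counts and 1 lower. Among 20 tested transcription factors Id2 was higher at 1.86 and Bcl11a, Ikzf1, Irf4 and Klf4 were lower. Bcl11a had 8.09 CPM (1 of 14) in Ccr7-Fscn1 cells and 148 CPM (20 of 40) in Cd209a cells. Under all 4 summaries 9.13% of all tested genes were higher and 13.5% lower. The calls among co-stimulatory genes and transcription factors lie near those shares and are not read as a trait of either list. Irf4 was counted in only 1 of 14 Ccr7-Fscn1 cells and 12 of 40 Cd209a cells, and its log2 ratio of -2.34 turned to 1.46 among members with at least 3 markers. Immediate early genes, which respond to tissue handling, were lower in Ccr7-Fscn1 cells for 5 of 12, including Egr1 at 78.9 CPM (5 of 14) against 788 CPM (26 of 40) in Cd209a cells, and higher for 0.

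Receptors for migration and uptake made up another difference. Of 13 tested migration receptors 2 were higher in Ccr7-Fscn1 cells and 5 lower. For this and the other lists of this paragraph, the shares over all tested genes were 9.13% higher and 13.5% lower. Adam8, a surface protease, had 342 CPM (11 of 14) in Ccr7-Fscn1 cells and 136 CPM (19 of 40) in Cd209a cells. Itgb7, an integrin chain for homing to mucosa, had 36.4 CPM (2 of 14) in Ccr7-Fscn1 cells and 305.3 CPM (33 of 40) in Cd209a cells. Of 12 tested genes of the Mincle cluster and the Syk-Card9 pathway 5 were lower in Ccr7-Fscn1 cells, Clec4a1, Clec4a2, Clec4a3, Clec4n and Fcer1g. Fcer1g, the signalling chain Mincle pairs with, had 319.6 CPM (12 of 14) in Ccr7-Fscn1 cells and 1176 CPM (40 of 40) in Cd209a cells, a log2 ratio of -1.88. Of 20 other lectins and uptake receptors 3 were higher and 8 lower. The inhibitory Fc receptor Fcgr2b had 22.3 CPM (3 of 14) in Ccr7-Fscn1 cells and 319 CPM (32 of 40) in Cd209a cells. Cd209b, Cd209c, Cd209d and Cd209e, close relatives of Cd209a, were all lower. Cd209a chose the Cd209a cells, so the lower calls of its relatives cannot be told apart from that choice. Counting could split reads among such similar genes, so their single values are uncertain. Of 11 cell cycle genes 6 were lower and 0 higher, Top2a, the topoisomerase of dividing cells, with 10.1 CPM (2 of 14) and 49.0 CPM (8 of 40) in Ccr7-Fscn1 and Cd209a cells.

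The list of lipid-associated genes was higher for 9 of 15 and lower for 0, with a median log2 ratio of 3.13, or 2.59 with groups at 0 set to the floor. Without the deepest cell the median was 1.51, with 9 of 14 higher and 1 lower by summed counts. Per cell the list had a median of 23.1 CP10k in Ccr7-Fscn1 cells and 8.26 CP10k in Cd209a cells. Fabp5, a fatty acid carrier, was spread over the cells, with 1157 CPM in 13 of 14 Ccr7-Fscn1 cells and 78.4 CPM in 18 of 40 Cd209a cells. Plin2, the coat of lipid droplets, had 2238 CPM in 13 of 14 and 200 CPM in 32 of 40, a log2 ratio of 3.48 that was 1.29 without the deepest cell. Fabp4, Spp1 and Apoe rested on 2 or 3 Ccr7-Fscn1 cells each, and Gpnmb on the deepest cell alone. The lowest values left in the table are 12 counts for Gpnmb, 11 for Apoe and 9 for Fabp4, so shallower cells could read 0. Of 12 macrophage markers 3 were higher in Ccr7-Fscn1 cells and 1 lower, while their sum had a median of 14.8 CP10k (3.65 to 86.3) in Ccr7-Fscn1 cells and 9.76 CP10k (0 to 130) in Cd209a cells. The summed-count call, before the other summaries, put 9 of the 12 higher. Cd63 is in both the macrophage and the maturation list. It had 927, 1044, 1441 and 780 CPM in Ccr7-Fscn1 cells of A0309, A0310, A0311 and A0312. In Cd209a cells it had 55.6, 164, 111 and 89.2 CPM, so the sum of macrophage markers in Ccr7-Fscn1 cells holds a maturation gene. The part of macrophage RNA in the lipid genes was not tested.

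Outside the lists, the genes with the largest ratios among those at 50 CPM or more in at least 25% of cells were Apol7c, Clu, Adcy6, Slc4a8 and Nudt17 on the side of Ccr7-Fscn1 cells. Apol7c and Clu were each at 301.4 CPM in 7 of 14 cells and Adcy6 at 245 CPM in 12 of 14, all without a count in Cd209a cells. On the side of Cd209a cells they were Klrb1b, Jaml, Pik3cd, Gpr35 and Plekhm3. Jaml, a junctional adhesion molecule, was at 127 CPM in 18 of 40 Cd209a cells, and Pik3cd, a leukocyte PI3-kinase subunit, at 106 CPM in 21 of 40, both without a count in Ccr7-Fscn1 cells.

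All 65 members were then set beside the 91 Clec9a-Xcr1 dendritic cells, which met the other conditions with counts of both genes. Members had a median of 18111 counts and Clec9a-Xcr1 cells 28332. Of 11775 tested genes 272 (2.31%) were higher in members and 273 (2.32%) lower, called in the pool and in all 4 hashtags, and 180 (1.53%) and 187 (1.59%) under all 4 summaries. Of 13 tested cDC2 markers 6 were higher and 1 lower (Notch2, at a log2 ratio of -1.37 by sums and -0.97 by the mean over cells). Of 12 tested cDC1 markers 0 were higher and 10 lower. The groups were chosen by opposed conditions on Clec9a and Xcr1, and Cd209a helped to choose members. These counts of markers therefore do not support the label. Mgl2 had 1126, 299, 293 and 494 CPM in members of A0309, A0310, A0311 and A0312, against 5.21, 0, 0 and 1.26 CPM in Clec9a-Xcr1 cells. Every hashtag was higher in members, with a pool log2 ratio of 7.92. Sirpa, the receptor for CD47 that marks cDC2, had 242 CPM in members (41 of 65) and 16.7 CPM in Clec9a-Xcr1 cells (26 of 91), a log2 ratio of 3.78 between 2.80 and 4.56 in single hashtags. Irf8, the transcription factor of cDC1, had 175, 291, 166 and 110 CPM in members and 2122, 2447, 2220 and 2261 CPM in Clec9a-Xcr1 cells, so the hashtags did not overlap. The member levels of A0310 and A0311 include a remaining cell each, with Irf8 at 27.6 and 24.2 CP10k. Gcsam, a marker of cDC1 in mice, was counted in 1 of 65 members and 65 of 91 Clec9a-Xcr1 cells, at 0.632 and 130 CPM in members and in Clec9a-Xcr1 cells. Tmem176b and Tmem176a, ion channel proteins of myeloid cells, led the genes outside the lists, with 558 and 7.42 CPM for Tmem176b in members and in Clec9a-Xcr1 cells.

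In the maturation list 11 of 25 genes were higher in members than in Clec9a-Xcr1 cells and 0 lower. The median log2 ratio was 2.56, against 0.07 over all tested genes. Ccr7 and Fscn1 helped to choose members and not Clec9a-Xcr1 cells, so this direction cannot be told apart from the choice. Per cell the list had a median of 201 CP10k in Ccr7-Fscn1 cells and 32.1 CP10k in Cd209a cells, against 14.3 CP10k in Clec9a-Xcr1 cells. Il4i1 had 353, 257, 42.6 and 296 CPM in members of the 4 hashtags. It had no count in any of the 91 Clec9a-Xcr1 cells and was at least 211-fold higher in members. Among members it was counted in 13 of 14 Ccr7-Fscn1 cells, 10 of 40 Cd209a cells and 4 of 11 remaining cells. Of 12 tested genes of the Mincle cluster and its Syk-Card9 pathway 5 were higher in members and 0 lower. They were the lectin receptor genes Clec4a1, Clec4a3 and Clec4a2, the beta-glucan receptor Clec7a and Fcer1g, the Fc receptor gamma chain through which Mincle signals. Clec7a had 317 CPM in members (45 of 65) and 33.4 CPM in Clec9a-Xcr1 cells (28 of 91).

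The 155 monocytes, with Ccr2 and at least 2 of F13a1, Ly6c2, Chil3, Plac8 and Fn1, had a median of 20425 counts. They had fewer than 2 of the 5 dendritic markers, needed no count of H2-Ab1 and met the other limits set for members. Of 11648 tested genes 97 (0.833%) were higher in members and 153 (1.31%) lower, and 66 (0.567%) and 98 (0.841%) under all 4 summaries. Maturation genes made up 5 of the higher and none of the lower: Cacnb3, Il4i1, Socs2, Bcl2l14 and Relb. Their list had a median log2 ratio of 1.20 against 0.04 over all tested genes. Per cell its sum had a median of 201 CP10k in Ccr7-Fscn1 cells and 32.1 CP10k in Cd209a cells. The medians were 28.2 CP10k in monocytes and 41.1 CP10k in C1q macrophages, the Cd209a median lying between these last 2. Ccr7 and Fscn1 helped to choose members and not monocytes, so the maturation calls cannot be told apart from the choice. H2-Oa, a chain of the class II modulator H2-O, had 61.4, 228, 105 and 122 CPM in members of the 4 hashtags. In monocytes it had 1.55, 8.24, 0 and 0 CPM. H2-Ob was also higher, at 99.9 CPM in members and 9.06 CPM in monocytes. A count of H2-Ab1 was required of members only, so these class II differences cannot be told apart from the choice. Bcl11a and Etv3 were the transcription factors called higher, and Maf, which drives macrophage identity, was lower at 15.8 CPM in members and 108 CPM in monocytes. The lysozyme gene Lyz2, whose small counts are also absent, had 1259, 3258, 1163 and 1314 CPM in members and 10987, 12728, 6744 and 12272 CPM in monocytes, without overlap. Outside the lists Spint2, a protease inhibitor, was at 74.0 CPM in 17 members and at 0 in all 155 monocytes, at least 106-fold higher.

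Against 5330 C1q macrophages, with a median of 37348 counts, 288 of 11582 tested genes (2.49%) were higher in members and 345 (2.98%) lower, or 234 (2.02%) and 265 (2.29%) under all 4 summaries. The median log2 ratio of genes at 5 CPM or more in both groups was 0.11, a shift that is not subtracted from the values here. Of 20 transcription factors 7 were higher in members and 2 lower, with a list median of 1.31 against 0.17 over all tested genes. Bcl11a had 123, 137, 38.1 and 94.9 CPM in members of the 4 hashtags and 1.07, 0.190, 0.636 and 0.545 CPM in macrophages, without overlap, and Runx3, Nr4a3, Cbfa2t3, Etv3, Etv6 and Nfil3 were the others. Maf was among the lower. Of 13 tested class II genes 5 were higher in members and 0 lower, with H2-Oa and H2-Ob, modulators of peptide loading, at log2 ratios of 6.75 and 5.55, while Cd74 at 1.64 was not called. Under all 4 summaries 4 of those 5 calls were kept. Members needed a count of H2-Ab1 and macrophages did not, so these calls cannot be told apart from the choice of members. Of 11 tested macrophage markers 0 were higher and 7 lower, 6 of them under all 4 summaries. The lipid carrier Apoe was among the lower, at 195 CPM in 8 of 65 members and 6174 CPM in macrophages. Members and macrophages were chosen by opposed limits on C1qa plus C1qb, so these lower calls do not support the label. Plbd1, a phospholipase-like gene of myeloid cells, had 819, 604, 484 and 972 CPM in members of the 4 hashtags and 22.1, 5.95, 4.53 and 3.79 CPM in macrophages, the members being higher in every hashtag. Il1b had 679 CPM in members (27 of 65) and 24 CPM in macrophages (399 of 5330), a log2 ratio of 4.76, and Itgb7 had 166 and 5.73 CPM in members and in macrophages.

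**Figure D5:**
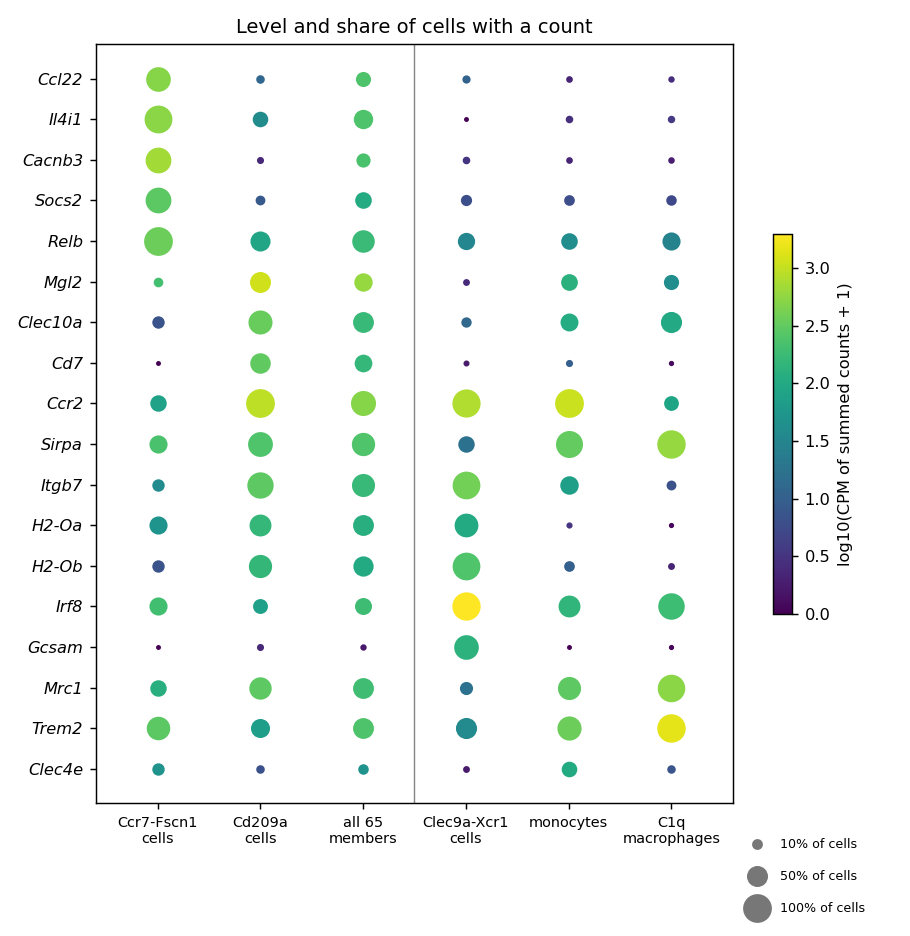
Level (colour, log10 of CPM plus 1) and share of cells with a count (dot area) of 18 genes in Ccr7-Fscn1 cells, Cd209a cells, all 65 members, Clec9a-Xcr1 cells, monocytes and C1q macrophages. Maturation genes stand out in the Ccr7-Fscn1 column, H2-Oa and H2-Ob in Cd209a and Clec9a-Xcr1 cells, and Irf8 and Gcsam in Clec9a-Xcr1 cells.

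Genes of the Mincle study itself were low or patchy in the members. Clec4e was counted in 6 of 65 members (9.23%, interval 3.46 to 19.0%), namely 4 of A0309, 1 of A0310, 0 of A0311 and 1 of A0312, at 51.8, 96.9, 0 and 60.7 CPM. The 0 in A0311 allows up to 6.72 CPM at 3 counts. Among the cells with a count were 2 of the deepest members, which went against the label. They were remaining cells of A0309 and A0310, with Clec4e at 2.07 and 3.89 CP10k. The A0310 level came from that cell alone. Cd209a cells had 13.1, 0, 0 and 0 CPM in the 4 hashtags. In the pool Clec4e was at 48.7 CPM in members, 0.742 CPM in Clec9a-Xcr1 cells, 99.2 CPM in monocytes and 6.20 CPM in macrophages. None of the 3 comparisons called it. With 12 members in A0311 and no count among them, the rule could not call it higher in members. Monocytes of A0311 had no count either, so no call was possible against them. The missing calls therefore do not show similar levels. In monocytes of A0309, A0310, A0311 and A0312 it had 134, 231, 0 and 0 CPM, counted in 22 of 69, 17 of 29, 0 of 32 and 0 of 25 cells, so the pooled level of monocytes comes from A0309 and A0310. Endothelial cells, which should lack it, had a count in 0.754%. It rested on 2 cells of each kind of member, so its log2 ratio of 2.91 between Ccr7-Fscn1 and Cd209a cells compares 2 cells with 2. Osm, the gp130 cytokine oncostatin M, was counted in 8 of 65 members at 16.4 CPM, and Tgfb1 in 41 of 65 at 167 CPM, with 132, 143, 213 and 190 CPM in the 4 hashtags. Neither was called in any comparison by all summed counts, although Tgfb1 was lower in Ccr7-Fscn1 than in Cd209a cells without the deepest cell, at a log2 ratio of -1.44, and Osmr, the receptor of Osm, was counted in 3 members.

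Levels by hashtag rested on few members. Among the genes that chose the cells, Ccr7 had 691, 1579, 33.6 and 1276 CPM in members of A0309, A0310, A0311 and A0312, and Cd209a had 896, 302.1, 313.7 and 1021 CPM. Ccl22 had 487, 114, 53.8 and 216 CPM in A0309, A0310, A0311 and A0312, counted in 6, 6, 1 and 2 members. Il4i1 was counted in 11, 7, 3 and 6 members. A0311 was the lowest for both, and there the deepest cell held 202548 of 446351 counts. Cd74 had 20149.5, 21955, 11199.7 and 24149.8 CPM in the same order, again lowest in A0311.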

How the data were processed

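Single cells of pooled, hashtag-labelled stromal vascular fractions were captured with the BD Rhapsody system and sequenced by TAS-Seq, per the labels' protocols. The authors deposited 1 table of counts per gene and cell (30084 genes, 15741 cells) and hashtag tag counts. Whether reads were collapsed to molecules could not be settled from the labels. The submitters' processing notes name cutadapt 3.4, Bowtie2 2.4.2, R 3.6.3 and 4.1.2 and GRCm38. The 367 cells the authors named doublets were left out, and no doublet caller was run. Members and gene lists were chosen with earlier results of these data known. Of 344 listed genes 4 were not matched in the table. Counts were summed over the cells of a group and scaled to 1000000 (CPM). Genes at 5 CPM or more in either group were compared as log2 ratios of CPM plus 1, leaving out genes of the selection rule. Named genes were Clec4e, Osm, Osmr and Tgfb1, the rule genes, per list and comparison up to 4 called genes with the largest ratio and the uncalled gene with the highest CPM, and per comparison and direction 8 called genes at 50 CPM or more in 25% or more of the cells of the higher group. Other genes named were chosen after their values were seen. With 1 pooled library no test was made. Analyses used Python 3.11.15, numpy 2.4.6, scipy 1.17.1, pandas 2.3.3 and matplotlib 3.10.9, and the calling rule was run on simulated data. The simulation drew Poisson counts with every cell at the same depth. It therefore cannot show how the calls hold under variation between cells or when a single deep cell gives much of a group's counts. Alternatives changed the scaling, pseudocount, filter, summary over cells, depth, hashtag rule and selection limits. Some genes are not reported here.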

Additional observations from a re-analysis of the deposited data

How the results depend on the processing

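Calls between Ccr7-Fscn1 and Cd209a cells rest on 14 and 40 cells, and those against other cells need 1 sign in each hashtag with 10 or more cells of both groups, so settings with fewer members use fewer hashtags and, by construction, can call more genes. No paired analysis was possible because the labels give 1 pooled library and no replicate numbers. The settings without the top cell of each gene, without the deepest cell, without members that had counts of 3 or more of a short set of macrophage genes (macrophage-gene cells) and under all 4 summaries were chosen after seeing the data. Shares below are percent of the genes tested under each setting.

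Genes higher in Ccr7-Fscn1 than in Cd209a cells were 25.4%, against 10.3% without the top cell of each gene, 9.13% under all 4 summaries and 21.6 to 30.8% leaving out 1 hashtag. Genes lower were 23.6%, against 15.4% without the top cell, 13.5% under all 4 summaries, 17.3% with no filter (5202 of 30065 genes, 2862 with it) and 24.7 to 32.6% leaving out 1 hashtag. Over Clec9a-Xcr1 cells 2.31% were higher, against 1.54% with a pseudocount of 5 CPM, 18.8% for members with at least 3 markers, 3.55% with C1qa plus C1qb under 2 CP10k, 1.53% under all 4 summaries and 3.67 to 4.42% leaving out 1 hashtag. There 2.32% were lower, against 1.43, 20.6 and 4.91% in those first settings in the same order, 5.52% without macrophage-gene cells and 3.59 to 4.79% leaving out 1 hashtag. Over monocytes 0.833% were higher, against 0.481% with the pseudocount of 5 CPM, 16.7% with 3 markers, 2.07% with the lower C1q limit, 2.64% without macrophage-gene cells and 1.57 to 2.38% leaving out 1 hashtag. There 1.31% were lower, against 0.61, 22.7, 3.90 and 5.94% in those settings, 2.25% by the mean over cells, 2.36% without the deepest 5% of cells, 2.31% thinned to 10000 counts, 0.841% under all 4 summaries and 2.29 to 3.33% leaving out 1 hashtag. Over C1q macrophages 2.49% were higher, against 1.56, 22.2, 4.82 and 5.61% in the same settings and 3.33 to 5.55% leaving out 1 hashtag, the highest without A0311. There 2.98% were lower, against 2.12% with no filter (636 of 30064 genes, 345 with it), 5.54% by the mean over cells, 6.34% without the deepest 5% of cells, 5.65% thinned, 22.9% with 3 markers, 7.52% with the lower C1q limit, 9.37% without macrophage-gene cells and 3.80 to 6.99% leaving out 1 hashtag, the highest without A0311.

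Members were 0.423% of cells, against 0.560% where 1 hashtag had to hold most tags, 0.130% with 3 markers, 0.312% with the lower C1q limit, 0.319% without macrophage-gene cells and 0.356 to 0.462% leaving out 1 hashtag. Ccr7-Fscn1 cells were 21.5% of members, 50% with 3 markers and 18.4 to 23.3% leaving out 1 hashtag.

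Between Ccr7-Fscn1 and Cd209a cells the sign of some log2 ratios turned. Without the top cell of each gene these were Osmr (0.31), C1qc (-3.61), Fcgr1 (-1.93), Il1rn (-1.93) and Pdgfra (1.60). C1qc was also -3.61 without the deepest cell, -3.74 without the deepest 5% and -5.26 with 3 markers. Cadm1 ran from -0.26 to 3.44 leaving out 1 hashtag and was -0.23 with 3 markers and -1.26 without macrophage-gene cells. With 3 markers Irf4 was 1.46 and Fabp4 -0.18, and Csf1 in members over macrophages was -0.52. The cause was not tested.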
